A study of Mus musculus with 20 samples.

Results

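The effect of losing the circular RNA ciRS-7 was measured in neurons under oxygen-glucose deprivation (OGD), by setting the 5 OGD_KO libraries against the 5 OGD_WT libraries over every gene of the deposited table, that is 10 of the 20 libraries of the series and 14185 genes. The neurons came from mouse cortex at embryonic day 15 and were cultured for 7 days, per the labels. Both groups then spent 12 h at 1% oxygen in a medium without added glucose or pyruvate. OGD_KO cultures lacked ciRS-7 and OGD_WT cultures were labelled wild type, while the strain field read C57BL/6N-Cdr1asem1Nikr for both. The labels do not say how many animals stand behind a culture, so p-values measure the spread between these libraries only.

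ciRS-7, listed in the table as Cdr1as, is a single-exon circular RNA that is abundant in neurons and binds Argonaute through many sites for the microRNA miR-7. In the known network, miR-671 pairs with ciRS-7 almost fully and directs its cutting, and the long noncoding RNA Cyrano (Oip5os1) directs the degradation of miR-7. miR-7 itself lowers its target messenger RNAs. OGD imitates the loss of oxygen and glucose in the core of a stroke.

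The microRNAs of this network are shown because the comparison removes their shared partner. Capitals mark the seed, bases 2 to 8, and the sequences are RefSeq's (GRCm38.p6). miR-7a and miR-7b share the seed GGAAGAC, and the seed of miR-671 is GGAAGCC.
mmu-miR-7a-5p: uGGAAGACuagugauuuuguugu
mmu-miR-7b-5p: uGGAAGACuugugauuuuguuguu
mmu-miR-671-5p: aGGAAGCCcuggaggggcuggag

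The sequence that the knockout targets is dense in matches to that seed. ciRS-7 comes from the strand opposite the gene Cdr1, which GENCODE release M21 (GRCm38, the mm10 assembly named in the submitters' processing notes) places on chromosome X from 61184005 to 61185558. In those 1554 bases the word GTCTTCC, the reverse complement of the miR-7 seed, occurred 79 times on the strand opposite Cdr1 and 0 times on the strand of Cdr1. For comparison, 14.2% of 23495 other genes with a transcript of that length held the word at least once in its first 1554 bases, and the highest count among them was 10. Only 2 of the 79 matches were followed by an A. The reverse complement of the miR-671 seed, GGCTTCC, was found on neither strand of this stretch, which covers only part of the locus. A match is a description of the letters and not a measured site. Windows of 30 bases at the first, the fortieth and the last match show the repeat, with each full match in capitals.
chrX:61184005-61184034, plus strand: tcaacGTCTTCCccaaaatccatGTCTTCC
chrX:61184763-61184792, plus strand: ccaaGTCTTCCcgaaaatccaaGTCTTCCc
chrX:61185519-61185548, plus strand: ccaaGTCTTCCcagaaacccatGTCTTCCt

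The values in the text are log2 CPM, counts scaled to the size of the library, from which an inferred clipping of extreme libraries was removed together with the whole-number counts recovered from them. The counts recovered per library lay between 9217017 and 16658617 in OGD_WT and between 7494947 and 14523457 in OGD_KO. Whether libraries were adjusted between batches before deposit is not given in the sources used here, so the recovered counts may not be raw reads. A gene was called when the Benjamini-Hochberg adjusted p of a two-sided limma test over all 14185 genes was under 0.05, and every fold change is on the log2 CPM scale. Where no library of one group reached into the range of the other, the groups are said not to overlap.

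The 10 libraries did not scatter alike. Over the 4652 genes with a mean log2 CPM of 5 or more, replicates 1 and 3 of both groups (batches 1, 2 and 3.2 of the labels) lay close to their group mean, with a standard deviation over genes of 0.07 to 0.13 log2. Replicates 2, 4 and 5 of both groups (batches 3.1 and 3.3) had 0.30 to 0.45. OGD_WT replicate 3 was the lowest or highest of its 5 libraries in 0.946% of these genes and OGD_KO replicate 3 in 2.9%, against 61.1% to 66.0% for each library of batches 3.1 and 3.3. The mean of the 3 scattered OGD_WT libraries nevertheless matched OGD_WT replicate 3 to a standard deviation of 0.09, although those libraries differed pairwise by 0.50 to 0.64. The cause was not tested. Results are therefore also given for batches 1, 2 and 3.2 alone (2 libraries against 2) and for batches 3.1 and 3.3 alone (3 against 3). These splits were chosen after seeing the data. Since OGD_WT replicate 3 lay so close to the mean of the scattered libraries, the splits cannot be taken as independent. Agreement between them, or an adjusted p from 1 of them, is not a replication.

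**Figure D1:**
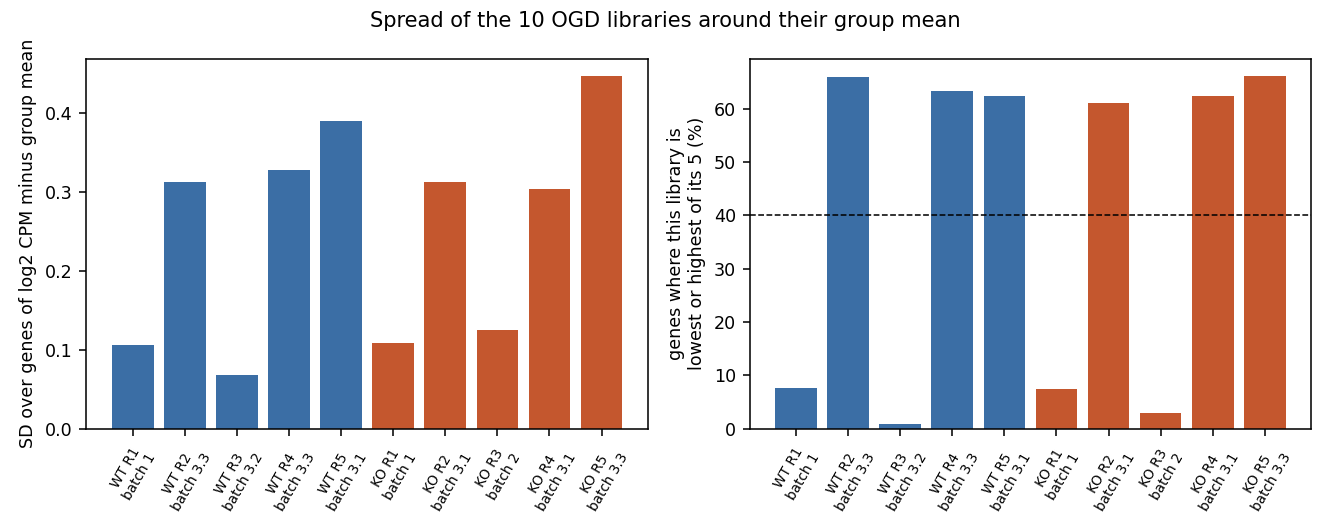
Spread of the OGD libraries. Left bars give the SD over genes of each library's log2 CPM minus its group mean, and right bars give the percentage of genes in which the library is the lowest or highest of its group of 5, with a dashed line at 40%, the value if all 5 libraries scattered alike. Replicates 1 and 3 of both groups stay under 8% and the other libraries exceed 60%.

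Under OGD the knockout cultures had almost no ciRS-7 reads and differed detectably from wild type in few other transcripts. Of 14185 genes tested, 4 were called (0.0282%): Cdr1as fell, and Cdr1os, Zfp965 and Sp5 rose. The unadjusted p was under 0.05 in 253 genes (1.78%). The groups did not overlap in 49 genes (0.345%), with 32 higher and 17 lower in the knockout. Without any difference, shares of 0.05 and of 0.00794 would be expected on average. Both observed shares were lower. Since genes vary together over only 10 libraries, such shares can lie far from their average. Whether the comparison was conservative was not tested. The small number of calls does not show that few genes differed. The cause of the low shares was not tested. The median fold change over all genes was -0.01 log2. With 0.0282% of all genes called, a short gene list would usually hold no called gene. A count of 0 called in a list is therefore not a result about its members.

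**Figure D2:**
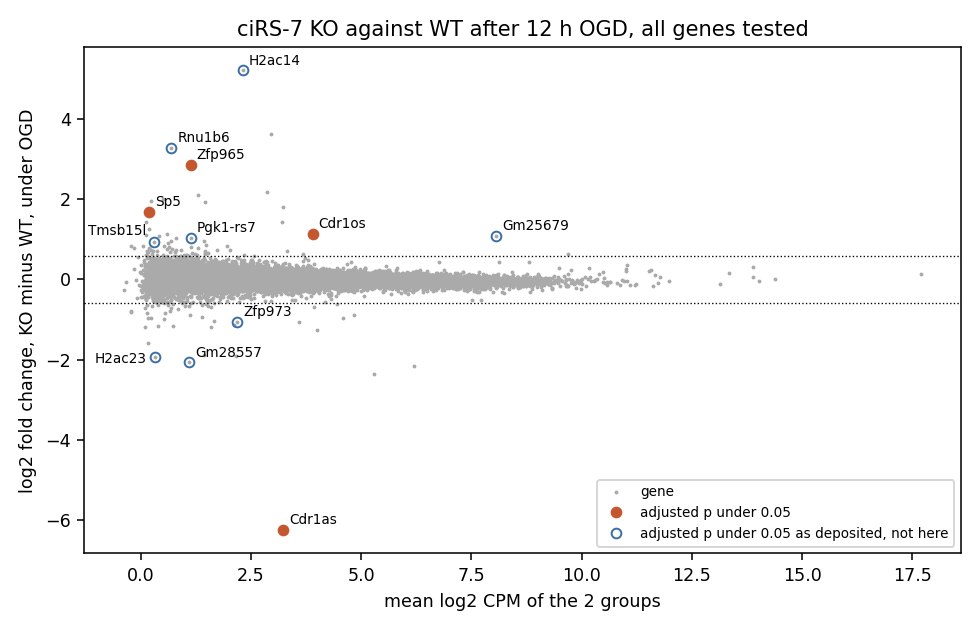
Log2 fold change, KO minus WT under OGD (vertical axis), against the mean log2 CPM of both groups (horizontal axis) for the 14185 genes. Filled points are the 4 called genes, open points the 8 genes called on the values as deposited but not with the clipping undone, and dotted lines mark a 1.5-fold change either way.

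Cdr1as had recovered counts of 1912, 545, 1030, 931 and 901 in OGD_WT replicates 1 to 5, and of 2, 11, 14, 9 and 9 in OGD_KO replicates 1 to 5. Every knockout library was far under every wild-type library, and a few counts were left in each. Wild type had a mean log2 CPM of 6.37 ± 0.51 and the knockout one of 0.11 ± 0.72 (SD, n = 5 each). By limma, the fold change was -6.26 log2 (SE 0.30, adjusted p 1.03e-09), which is a level 76.4 times higher in wild type. The scale understates changes that reach low counts, as in the knockout here, so the depletion is understated. The fold change was -6.97 in batches 1, 2 and 3.2 and -5.78 in batches 3.1 and 3.3. In normoxia, in a table of its own, the same fit gave -6.32 (SE 0.19).

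Cdr1os, the long noncoding host transcript of the locus on the same strand as ciRS-7, moved the other way. GENCODE places it on chromosome X from 61116378 to 61292484, and its longest listed transcript (19658 bases) contains the whole of the stretch opposite Cdr1 described above, with 125 seed matches in all. Since both features lie on 1 strand, how counts were divided between Cdr1as and Cdr1os depends on the counting, which is not given in the sources used here. Recovered counts of Cdr1os were 165, 84, 119, 100 and 128 in OGD_WT replicates 1 to 5, and 421, 384, 295, 186 and 104 in OGD_KO. On the log2 CPM scale the knockout libraries ran from 4.03 to 4.84 and the wild-type libraries from 2.89 to 3.58, so the groups did not overlap. The limma fold change was 1.14 log2 (SE 0.18, adjusted p 0.0305), or 2.20 times the wild-type level. The call was lost in 8 of the 10 fits that left out a library, where the adjusted p rose to as much as 0.197. Voom also lost it. The limma fold change was 1.27 in batches 1, 2 and 3.2 (adjusted p 0.0109) and 1.05 in batches 3.1 and 3.3 (adjusted p 0.422). As these splits cannot be taken as independent, their similar sizes are not separate support. Normoxia gave 1.28 (SE 0.18, adjusted p 0.00339).

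The other measured members of the network did not pass the test. Oip5os1 (Cyrano) had a fold change of -0.03 (SE 0.22), and Chpf2, the host gene of Mir671, of -0.02 (SE 0.18). Hnrnpk, whose intron carries Mir7-1, was at -0.04 (SE 0.16), and Zswim8, an adaptor of the ubiquitin ligase that removes Argonaute during target-directed microRNA decay, at 0.09 (SE 0.21). Mature microRNAs are not measured in these libraries. Among 14 genes of microRNA processing and Argonaute function, 9 were fitted higher, 5 lower and 0 were called, with a median of 0.03 log2 beside -0.01 over all genes. Tarbp2, a partner of Dicer, had the highest fold change at 0.25 (SE 0.22) and Dicer1 was at 0.14 (SE 0.19). Drosha, which cuts primary microRNAs in the nucleus, was at -0.07 (SE 0.19).

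**Figure D3:**
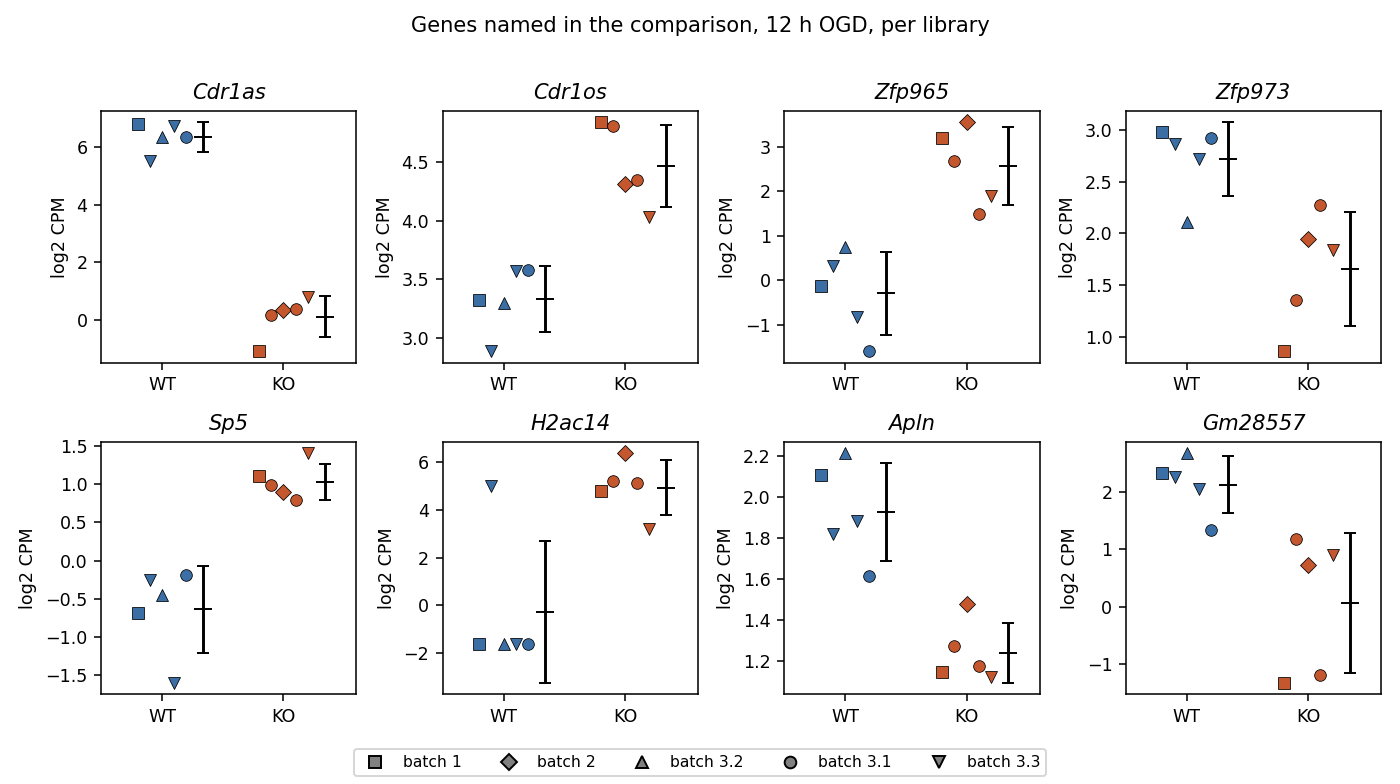
Log2 CPM of 8 named genes in each library under OGD. Each point is a library, its shape gives the batch and the bar beside each group gives the mean and SD of 5 libraries. Cdr1as and Cdr1os separate the groups in opposite directions, and H2ac14 is at the floor of the scale in 4 of 5 wild-type libraries.

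Sp5 was the only called gene outside the locus whose transcript is largely its own. It encodes a zinc finger transcription factor that is induced by Wnt signalling and in turn acts on Wnt target genes, and it lies on chromosome 2 from 70474923 to 70477729. Its counts were low throughout: 5, 6, 5, 0 and 6 in OGD_WT replicates 1 to 5 and 27, 23, 23, 13 and 15 in OGD_KO. Even so, every knockout library was above every wild-type library. The mean log2 CPM rose from -0.64 ± 0.57 to 1.03 ± 0.24 (SD, n = 5 each), a limma fold change of 1.67 log2 (SE 0.26, adjusted p 0.0296) on a scale that understates changes of low genes. Only 2.15% of its 50-base words occur in a transcript of another gene. The call was lost in 6 of the 10 fits without a library (limma adjusted p up to 0.177) and in batches 1, 2 and 3.2 alone, where the fold change was 1.57 (adjusted p 0.0861). Voom also lost it. Sp5 is not among the genes of the normoxia table.

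No other gene of the Wnt target list was called. Of 15 measured members, 7 were fitted higher and 8 lower, Sp5 alone was called, and the median was -0.01 log2. Axin2, the feedback scaffold that is the most widely used readout of the pathway, was at -0.13 (SE 0.18), and Lgr5, a receptor for R-spondins, at 0.36 (SE 0.22). Fzd7, a Wnt receptor, was at -0.25 (SE 0.19), and Sp8, the closest relative of Sp5 in the list, at 0.18 (SE 0.16).

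Zfp965, a member of a large cluster of KRAB zinc finger genes on chromosome 2 (175469985 to 175482171), rose. KRAB zinc finger proteins bind DNA and recruit silencing complexes, often at transposable elements. Recovered counts were 10, 11, 17, 2 and 0 in OGD_WT replicates 1 to 5 and 132, 85, 171, 23 and 22 in OGD_KO, so the groups did not overlap. Replicates 4 and 5 of both groups were the low ones. The limma fold change was 2.86 log2 (SE 0.42, adjusted p 0.0179), with 3.06 in batches 1, 2 and 3.2 and 2.72 in batches 3.1 and 3.3. The call was kept in 7 of 10 fits without a library and lost with voom weights, with the robust fit and in the joint fit of all 20 libraries.

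Counts of Zfp965 cannot be separated by sequence from those of its copies. Of its 50-base words, 96.3% occur in transcripts of other genes, and 83.2% occur in Zfp973 on the same chromosome (176670522 to 176719085). A transcript of 1271 bases is identical in the 2 genes, with 0 differing bases. Bases 1 to 90 of the shared coding part are shown because they stand for both genes.
Zfp965 and Zfp973: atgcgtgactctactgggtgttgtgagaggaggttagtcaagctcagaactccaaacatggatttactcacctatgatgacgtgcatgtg

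Zfp973 itself went the other way without passing the test. Its counts were 129, 83, 50, 54 and 80 in OGD_WT replicates 1 to 5 and 22, 31, 53, 42 and 21 in OGD_KO. The ranges of log2 CPM touched, since OGD_KO replicate 4 (2.28) was above OGD_WT replicate 3 (2.11). The limma fold change was -1.07 (SE 0.24, adjusted p 0.551), and on the values as deposited -1.10 (adjusted p 0.0239). Across the whole list of KRAB zinc finger copies, 37 of 82 members were measured. Of these, 22 were fitted higher, 15 lower, and 1 was called, with a median of 0.05 log2. Gm28557, on chromosome 13 (67069399 to 67108604), fitted lowest at -2.07 (SE 0.43, adjusted p 0.357), with 24 to 80 counts in OGD_WT and 1 to 27 in OGD_KO. Gm14440, whose 50-base words all occur in other genes, depended on the libraries: it was -5.22 in batches 1, 2 and 3.2 and 0.28 in batches 3.1 and 3.3.

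On the values exactly as deposited, 12 genes were called (0.0846%), the 4 above and 8 more. Clipping draws the extreme library of each group inwards. The 8 genes did not pass in the same fit with the clipping undone: H2ac14, Tmsb15l, Pgk1-rs7, Rnu1b6 and Gm25679 higher, and H2ac23, Gm28557 and Zfp973 lower. All 8 share sequence with other genes, from 63.9% of 50-base words in Tmsb15l to 100% in the U1 small nuclear RNA copy Rnu1b6, in Gm25679 and in the Pgk1 pseudogene Pgk1-rs7. H2ac14 had 0, 379, 0, 0 and 0 counts in OGD_WT replicates 1 to 5 and 401, 514, 1229, 317 and 57 in OGD_KO. OGD_WT replicate 2 thus lay inside the knockout range, and without it H2ac14 was called. With it the fold change was 5.21 (SE 0.97, adjusted p 0.135). H2ac14 matches a histone H2A pseudogene through an older symbol (chromosome 13, 21721457 to 21721808), and 93.1% of its words are those of Hist1h2ai.

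No replication-dependent histone gene was called in the main fit over all 10 libraries. These genes are transcribed in S phase and make messages without a poly(A) tail, which total RNA libraries capture. Of 55 measured members, 27 were fitted higher, 28 lower and 0 were called in that fit, with a median of 0.00 log2. Other fits of the same 10 libraries did call members. H2ac14 was called as deposited, with voom and with batch as a covariate, and H2ac23 was called as deposited. In batches 1, 2 and 3.2, 36 were lower (median -0.09) and 2 were called, H2ac14 and H2ac23, and in batches 3.1 and 3.3, 31 were higher (median 0.03) and H2ac14 was called. H2ac23 fitted lowest at -1.93 (SE 0.41, adjusted p 0.407), and 93.5% of its words occur in Hist1h2ap. After H2ac14 the highest member above a mean log2 CPM of 1 was H2ac22, at 0.36 (SE 0.16).

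Among the 49 genes without overlap, 28 had a mean log2 CPM reaching 1, with 14 higher and 14 lower in the knockout. Beyond the genes above, none of them passed the limma test after adjustment, and an exact permutation test of 1 gene cannot go under 0.00794 with 252 splits. Apln, which encodes the peptide ligand of the apelin receptor and is induced by hypoxia, was lower in every knockout library. Its log2 CPM was 2.11, 1.82, 2.21, 1.88 and 1.61 in OGD_WT replicates 1 to 5 and 1.15, 1.27, 1.48, 1.18 and 1.12 in OGD_KO. The fold change was -0.69 (SE 0.17, adjusted p 0.917), not past the threshold over all genes. Apln was picked because its groups do not overlap. That the fold change exceeds the spread within either group (SD 0.24 and 0.15) is therefore no separate support. In normoxia the fold change was 0.08 (SE 0.22), from a low wild-type mean of 0.93 log2 CPM. The difference, OGD minus normoxia, was -0.82 (SE 0.31) in the joint fit of all 20 libraries and was not called.

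G0s2, an inhibitor of the lipase ATGL, was between 1.22 and 1.84 log2 CPM in wild type and between 0.33 and 1.15 in the knockout (fold change -0.57, SE 0.21). Slco1c1, a thyroid hormone transporter, was between 3.96 and 4.37 in wild type and between 3.71 and 3.95 in the knockout (fold change -0.30, SE 0.13). In the other direction, Lrrc27 was at 0.74 (SE 0.20), Cptp, a ceramide-1-phosphate transfer protein, at 0.46 (SE 0.17), and Zfp30, a KRAB zinc finger gene, at 0.30 (SE 0.14). The lowest knockout library of Cptp was at 1.82 and the highest wild-type library at 1.61. The genes named here rest on 6 to 260 recovered counts a library. Dmac2, Ccpg1os, Gm17082, Gm2223 and ENSMUSG00000061864, between -0.59 and -0.29, complete the 10 largest of the 14 falls. Among the higher ones, 3110001I22Rik, Ankrd34b, Pcdhb8, Oard1 and Armc5 lay between 0.26 and 0.63. Of these names, Gm2223 (100% of its 50-base words) and Gm17082 (46.5%) share much sequence with other genes.

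Messages that carry miR-7 sites were examined because ciRS-7 binds miR-7. In a list of 25 genes reported as miR-7 targets, written from general knowledge, 24 were measured, 11 were fitted higher, 13 lower and 0 were called. No member had groups that did not overlap or an unadjusted p under 0.05, where 0.345% and 1.78% of all genes did. Their median was -0.02 log2 beside -0.01 over all genes. The 95% interval lay within 1.5-fold either way for 20 of the 24, compared with 76.2% of all genes. The near-even split of directions depended on the libraries. Without OGD_WT replicate 5, the wild-type library with the lowest list mean (5.78), 17 were fitted lower and 7 higher (median -0.036). In batches 1, 2 and 3.2 alone, 17 were also lower and 7 higher (median -0.037). In batches 3.1 and 3.3 alone, 12 were lower and 12 higher (median -0.003). No member was called in any of these fits.

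Fos, an immediate early transcription factor, had log2 CPM values of 7.49, 6.80, 7.08, 7.32 and 6.73 in OGD_WT replicates 1 to 5 and of 7.46, 6.74, 6.54, 7.28 and 6.84 in OGD_KO. The groups covered the same range, and the fold change was -0.11 (95% interval -0.53 to 0.30). Irs2, an adaptor of the insulin receptor, was at -0.16 (-0.50 to 0.18). Klf4, a zinc finger transcription factor, was at -0.27 (-0.63 to 0.10). Nr4a3, an orphan nuclear receptor, was the second lowest at -0.24 (-0.77 to 0.29), an interval that reaches past 1.5-fold. The highest member was Pax6, a progenitor transcription factor, at 0.17 (-0.17 to 0.51), followed by Irs1 at 0.15 (-0.13 to 0.44).

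**Figure D4:**
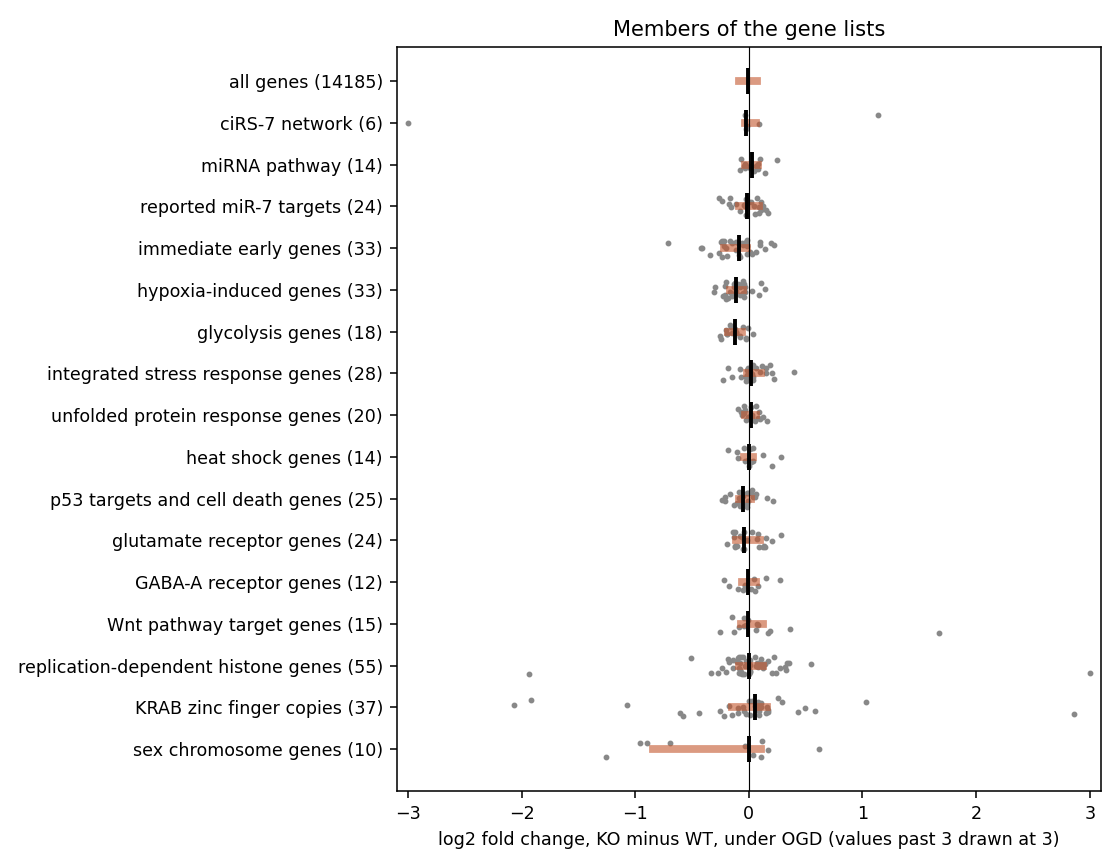
Log2 fold change, KO minus WT under OGD, of each member of the gene lists (grey points, number measured in brackets). Black ticks are medians and orange bars the quartiles, with all genes in the top row; the medians lie between -0.12 and 0.05.

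Immediate early genes, which neurons induce within minutes of depolarization or stress, were mostly fitted lower. Of 33 measured, 25 were lower, 8 higher and 0 were called, with a median of -0.09 log2. The median was -0.20 without OGD_WT replicate 5, the wild-type library with the lowest list mean (4.48). The wild-type library with the highest list mean, OGD_WT replicate 4 (4.99), was kept there. The median was -0.14 in batches 1, 2 and 3.2 and -0.08 in batches 3.1 and 3.3. Egr4 had the lowest fold change at -0.71 (SE 0.27, p 0.018, adjusted p 1.00 by limma). It was a gene of low level, since 32 of the 33 members had a mean log2 CPM of 1 or more and Egr4 did not. Gadd45b, a stress-induced DNA demethylation factor, was at -0.42 (SE 0.19). Fosb was at -0.41 (SE 0.22). Trib1, at 0.22 (SE 0.22), and Egr2, at 0.20 (SE 0.15), were the highest. In wild type the list mean was 4.72 ± 0.20 log2 CPM and in the knockout 4.60 ± 0.17 (SD, n = 5 each), so the difference was smaller than the spread within either group.

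Hypoxia-induced genes, targets of the HIF transcription factors, had a wider spread between wild-type libraries than their difference between genotypes. Their mean was 5.59 ± 0.53 log2 CPM in wild type and 5.49 ± 0.15 in the knockout (SD, n = 5 each). OGD_WT replicate 5 was low at 4.71 and OGD_WT replicate 2 high at 6.12, while the knockout libraries ran from 5.25 to 5.63. Of 33 measured members, 29 were fitted lower, 4 higher and 0 were called, with a median of -0.11 log2. Without OGD_WT replicate 5, all 33 were fitted lower with a median of -0.31 and 0 were called. Leaving out the lowest wild-type library raises the wild-type mean, and the highest, OGD_WT replicate 2, was kept there. That shift therefore follows from the library removed. In batches 1, 2 and 3.2 alone the median was -0.08, with 24 lower.

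Bhlhe40, a repressor of the circadian clock induced by hypoxia, had the lowest fold change of this list at -0.31 (SE 0.19). Ak4, a mitochondrial adenylate kinase, was at -0.30 (SE 0.26). The glucose transporter gene Slc2a3 was at 0.11 with an SE of 0.57, and the metallothionein gene Mt1 at 0.15 (SE 0.22). Of 18 glycolysis genes, 17 were fitted lower, 1 higher and 0 were called, with a median of -0.12. Hk2, an inducible hexokinase, was at -0.25 (SE 0.19), Gpi1, the isomerase that follows it, at -0.25 (SE 0.34), and Ldhb, a subunit of lactate dehydrogenase, at 0.04 (SE 0.15). The list mean was 6.24 in OGD_WT replicate 5 and 6.84 to 7.20 in the other wild-type libraries. Without that library the median was -0.29, and in batches 1, 2 and 3.2 it was -0.03.

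**Figure D5:**
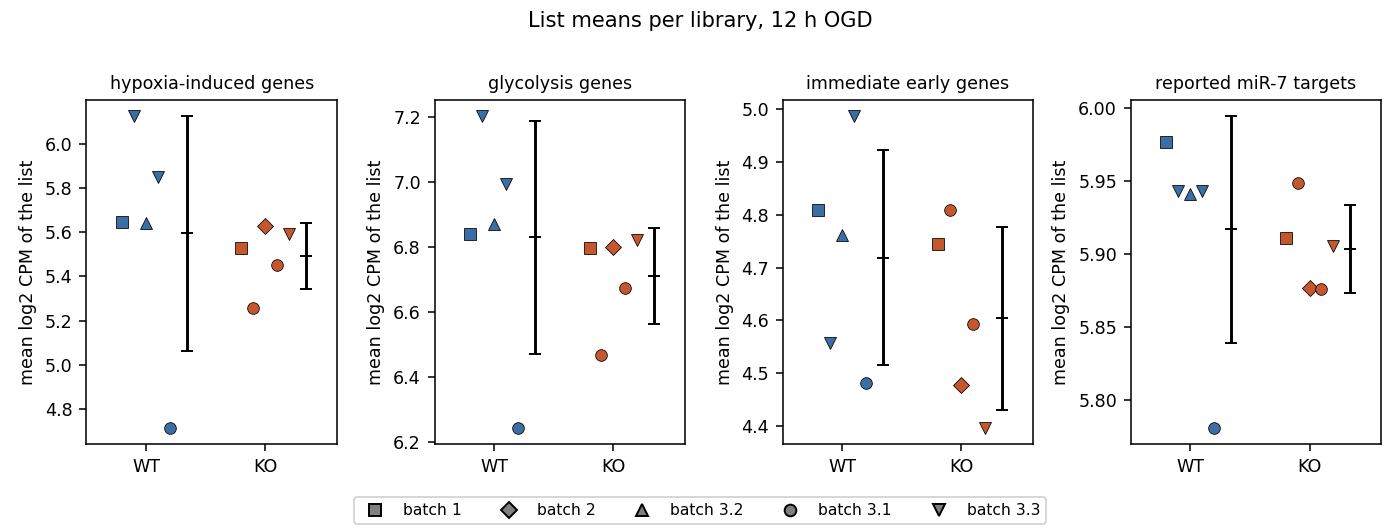
Mean log2 CPM of 4 gene lists in each library under OGD. Points are libraries with the batch as shape, and bars give the mean and SD of 5 libraries. OGD_WT replicate 5 is the lowest library of the hypoxia-induced, glycolysis and reported miR-7 target lists.

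Stress pathways that report protein damage or amino acid shortage had no called gene, where 0.0282% of all genes were called. Integrated stress response genes had 17 members fitted higher and 11 lower of 28, a median of 0.02 and 0 called. The batches differed in direction, with 23 of 28 fitted higher in batches 1, 2 and 3.2 (median 0.12) and 17 of 28 lower in batches 3.1 and 3.3 (median -0.02). Trib3, a pseudokinase induced by ATF4 and CHOP, was highest at 0.40 (SE 0.21), and Cth, which makes cysteine, was at 0.22 (SE 0.20). Cbs, the enzyme before it in that pathway, was at -0.23 (SE 0.16). Of 20 unfolded protein response genes, 12 were higher, 8 lower and 0 called (median 0.02), and 19 of the 20 had an interval within 1.5-fold either way. In batches 1, 2 and 3.2, 17 of them were fitted higher (median 0.09), and in batches 3.1 and 3.3, 12 were fitted lower (median -0.03). Manf, a secreted factor of the endoplasmic reticulum, was highest at 0.16 (SE 0.22).

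Heat shock genes were split 7 to 7 with a median of 0.01. Hspa1a and Hspa1b, the inducible HSP70 pair whose near-identical copies share reads, were at 0.20 (SE 0.28) and 0.28 (SE 0.26). Hsf1, the master factor of the response, was at -0.18 (SE 0.13), with groups that did not overlap. Of 25 p53 targets and cell death genes, 18 were fitted lower, 7 higher and 0 called, with a median of -0.05. Fas, a death receptor, was at -0.23 (SE 0.24), Zmat3, a p53 target, at -0.21 (SE 0.22) and Casp9, the initiator caspase of the mitochondrial pathway, at 0.16 (SE 0.16).

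Receptors for the main transmitters had no called gene either, which is near the share of 0.0282% over all genes. Of 24 glutamate receptor genes, 10 were fitted higher, 14 lower and 0 called (median -0.04). Grin1, the obligate NMDA receptor subunit, was at -0.19 (SE 0.21), and Grm4, a presynaptic metabotropic receptor, at 0.28 (SE 0.20). The 12 GABA-A receptor genes were split 6 to 6 (median -0.01), with Gabrg3 at 0.27 (SE 0.21) and Gabra5 at -0.22 (SE 0.20). In batches 1, 2 and 3.2, 11 of the 12 were fitted higher (median 0.10), while in batches 3.1 and 3.3, 8 were fitted lower (median -0.12). Their list mean was 3.94 in OGD_KO replicate 5 and 4.62 to 4.77 in the other knockout libraries.

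The labelled tissue was checked against cell type markers. Neuron markers were high in both groups, with list means of 7.93 ± 0.20 log2 CPM in wild type and 7.85 ± 0.16 in the knockout (SD, n = 5 each). Map2, a dendritic protein, stood at 11.05 in wild type, with a fold change of -0.05 (SE 0.21). Markers of dividing and glial cells were also present. Mki67, a proliferation marker, stood at 9.23 and 9.21, and Slc1a3, a transporter of astrocytes and radial glia, at 9.75 and 9.60. All 9 measured astrocyte markers and all 9 oligodendrocyte lineage markers were fitted lower in the knockout, with medians of -0.09 in both lists and 0 called. In batches 1, 2 and 3.2 those medians were 0.02 and 0.06, and without OGD_WT replicate 5 they were -0.10 and 0.04. The direction was not particular to glia, since 8 of 10 neuron markers were also fitted lower, with a median of -0.08. In bulk samples, fewer cells of a type and less RNA per cell cannot be told apart. Of 10 microglia markers 1 was measured, of 8 endothelial markers 1 was measured (Kdr), and none of the 7 erythroid markers was in the table. Of 9 choroid plexus and cortical hem markers 2 were measured, of which Ttr was at -1.19 (SE 0.53) from a wild-type mean of 0.69 log2 CPM. No marker of any list was called.

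Inhibitory neuron markers included the gene with the lowest p among all markers. Npy, the peptide neuropeptide Y of interneurons, had a mean of 2.96 in OGD_WT and 3.67 in OGD_KO (fold change 0.71, SE 0.20, limma p 0.00229, adjusted p 1.00). It was picked after its value was seen. With batches 1, 2 and 3.2 alone it was called, and with batches 3.1 and 3.3 alone it was not. The 10 markers of the list had a median of 0.12, with 6 fitted higher and 4 lower. Gad1, which makes GABA, was at -0.03 (SE 0.18). Trp73, a marker of Cajal-Retzius cells, was at -0.48 (SE 0.16, adjusted p 1.00), and Reln, the secreted protein of the same cells, at -0.14 (SE 0.18).

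Transcripts of the sex chromosomes differed between libraries of 1 genotype. Eif2s3y, a Y-linked gene, had a log2 CPM between 3.92 and 5.03 in wild type, while OGD_KO replicate 2 was at the floor of -1.60 and the other knockout libraries were between 4.04 and 5.22. Xist, which is transcribed from the inactive X chromosome, was 8.02 in OGD_WT replicate 1 and 9.47 to 10.33 in the other wild-type libraries, and lay between 9.19 and 10.64 in the knockout. The fold changes were -1.26 (SE 0.87) for Eif2s3y and 0.62 (SE 0.34) for Xist. Cdr1as and Cdr1os lie on chromosome X, and the part of these differences in their values was not tested.

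Whether OGD altered the knockout effect was tested in a joint fit of all 20 libraries over 13720 genes. Libraries of the same genotype and replicate number were taken as 1 culture and entered as a block. The fitted correlation within a culture was -0.19, and a negative value widens the SE of the difference between OGD and normoxia. No gene was called for the difference of the knockout effects (OGD minus normoxia). An unadjusted p under 0.05 was found in 101 genes, also less than the share of 0.05 expected without any difference. For Cdr1as the difference was -0.05 (SE 0.48) and for Cdr1os -0.14 (SE 0.29), with an adjusted p of 1.00 for both. For Zfp965 it was 3.93 (SE 1.31, p 0.0055, adjusted p 1.00 by limma). In the normoxia table Zfp965 had means of 0.85 ± 1.98 in N_WT and 0.25 ± 1.74 in N_KO (SD, n = 5), so that its levels there varied between libraries of 1 genotype more than the genotypes differed. A miss of the threshold does not show that the effects were equal.

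For 10809 of 14185 genes (76.2%) the 95% interval of the fold change lay within 1.5-fold either way, at a median SE of 0.18 log2. On batches 3.1 and 3.3 alone no interval was that narrow, and on batches 1, 2 and 3.2 alone 78.2% were. Larger fitted differences than this also missed the threshold over all genes, as for Apln and Zfp973.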

How the data were processed

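Stranded libraries of total RNA (SMARTer kit, per the labels) were compared as 5 OGD_KO against 5 OGD_WT. The values deposited by the authors are log2 CPM; the build is mm10 per the submitters' processing notes, and aligner, counting, scaling and any adjustment between batches are not given in the sources used here. A clip at the 10th and 90th percentile of each gene and group was inferred from the values and inverted (weights 0.6 and 0.4). Whole counts then accounted for at least 99.9% of low values, against 45.5% to 92.8% as deposited (tolerance 0.05 counts, up to 500 counts).

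limma 3.58.1 in R 4.3.3 (lmFit, eBayes with trend) gave two-sided tests. Alternatives were the deposited values, voom, other scalings, filters and weights, batch terms or subsets, a replicate block, a joint fit (prior count 2) and leaving out each library. The fit and the inversion were tested on simulated data. That simulation applied the same clip that was inverted and had no scatter by batch. It therefore checks the code and cannot show that the inferred clip or the fit suits the real libraries. Symbols matched GENCODE M21 for all but 108 genes. Named genes were those called in the main or deposited values; the 10 largest rises and falls without overlap; the ciRS-7 network; the 2 largest rises and falls per list with mean log2 CPM of 1 or more; Fos, Nr4a3, Irs2 and Klf4, with 1 further target that is not reported here; and the markers of highest and lowest mean level per list. Axin2, Egr4, Gad1, Reln, Npy, Trp73, Ttr and other markers outside this rule were named after their values were seen. Members and lists were chosen with earlier results of these data known.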

Additional observations from a re-analysis of the deposited data

Results flagged for a closer look

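In 96 groups of 5 values (32 named genes and 16 pathway list means in each genotype) the highest or lowest library was checked for a gap to the next that exceeds Dixon's 95% limit of 0.71 of the range, and 10 groups passed it, where chance gives about 1 in 20. In OGD_WT replicate 4, Cptp was at 1.05 log2 CPM with the others at 1.47 to 1.61, and Oard1 at 1.79 with the others at 2.26 to 2.31. H2ac14 was at 5.01 in OGD_WT replicate 2 and Rnu1b6 at 1.67 in OGD_WT replicate 5, with the other 4 libraries at the floor of -1.60 in both cases. The mean of the reported miR-7 targets was 5.78 in OGD_WT replicate 5 (others 5.94 to 5.98), and that of the KRAB zinc finger copies 2.62 in OGD_WT replicate 1 (others 2.25 to 2.32).

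In the knockout, Ccpg1os was at 0.76 in OGD_KO replicate 2 (others 1.18 to 1.27) and Zfp30 at 4.11 in OGD_KO replicate 3 (others 3.83 to 3.91). The GABA-A receptor mean was 3.94 in OGD_KO replicate 5 (others 4.62 to 4.77). The mean of the sex chromosome genes was 4.41 in OGD_KO replicate 2 (others 5.68 to 5.86), the library in which Eif2s3y was at the floor.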

How the results depend on the processing

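Cdr1as was called in all 25 alternatives, Zfp965 in 19 of 25, Sp5 in 13 of 23 and Cdr1os in 10 of 25, and none of the 12 genes called in the main fit or as deposited changed direction in any. The count of 4 calls (3 higher, 1 lower) became 12 (8 and 4) as deposited and 2 (1 higher) with voom. The 2 with voom were Cdr1as and H2ac14, so Cdr1os, Sp5 and Zfp965 were lost. The count was 17 (12 and 5) with batch as a covariate or in batches 1, 3.1 and 3.3 with that covariate. In the joint fit it was 2 (1 higher), Cdr1as and Cdr1os. Library weights gave 4757 calls (2567 higher, 2190 lower): limma set a weight of 50.2 on OGD_WT replicate 3 and 11.4 on OGD_KO replicate 3, against 0.21 to 0.36 for each library of batches 3.1 and 3.3, and its estimate of the weights stopped before converging. With the replicate block 2 genes were called, 1 of them higher. Over genes with a mean log2 CPM of 5 or more, deviations of same-numbered libraries from their group means correlated at -0.302 to 0.285. Replicate 1 was batch 1 in both groups, and the other same-numbered libraries were of different batches. Since values may have been adjusted between batches before deposit, these correlations cannot settle whether the numbers pair cultures. Splits added after seeing the data gave 18 calls (11 and 7) in batches 3.1 and 3.3 and 16 (10 and 6) in batches 1, 2 and 3.2.

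Leaving out each library gave 1 to 7 calls, with 0 to 4 higher and 1 to 3 lower, and 59 to 169 genes without overlap. It left 1 call without OGD_KO replicate 1 or 2, 2 without OGD_KO replicate 3 or OGD_WT replicates 1, 3 or 4, and 7 without OGD_KO replicate 5. The 49 genes without overlap became 139 as deposited, 28 with the filter at a mean of 1, 237 in batches 3.1, 3.2 and 3.3, 75 in batches 1, 3.1 and 3.3, 304 in batches 3.1 and 3.3 and 5986 in batches 1, 2 and 3.2. The 10809 genes with an interval within 1.5-fold became 3664 with batch as a covariate, 3285 in batches 3.1, 3.2 and 3.3, 3672 in batches 1, 3.1 and 3.3 with the covariate and 0 in batches 3.1 and 3.3. In batches 1, 2 and 3.2 it was 11098, with a median SE of 0.105 against 0.179. Groups of fewer libraries overlap less often by construction; the other causes were not tested. Over 116 named genes, 2796 of 2879 alternative values stayed within the spread of a group or on their side of the threshold.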
